A study of Mus musculus with 2 samples.

Results

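The genes described here are the vascular endothelial growth factor (VEGF) ligands Vegfa, Vegfb, Vegfc and Vegfd, the VEGF receptors Flt1 and Kdr, the angiopoietins Angpt1 and Angpt2, and the TIE receptors Tek and Tie1. They were taken by symbol from the gene tables of both libraries and are 10 of 32285 genes. Single-cell RNA sequencing (scRNA-Seq) of the mouse temporomandibular joint (TMJ), the hinge joint of the jaw, gave the counts. The PBS library came from joints injected with phosphate-buffered saline and the CFA library from joints injected with complete Freund's adjuvant, an oil emulsion with killed mycobacteria that causes a lasting joint inflammation. Both came from wild type (WT) C57BL/6 mice, listed as 8 to 10 weeks old. The methods describe female mice injected at 8 weeks of age in both joints with 10 µL, the CFA at 5 mg/mL, and collected 3 weeks later (n = 3 mice). Cells were released from bone, condyle, disc, ligament and muscle in 1 digestion, so no level belongs to 1 tissue of the joint. The methods also describe a depletion of CD45+ cells with magnetic beads, which can set the share of immune cells in each library.

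Each condition has 1 library. No difference between them has a replicate check, and no p-value or standard error was computed. Intervals are 95% intervals of the counting of unique molecular identifiers (UMIs, 1 per captured RNA molecule) or of cells, and they cover counting error only, since cells of 1 library are not independent. Barcodes with at least 500 genes, at most 10% mitochondrial and at most 1% hemoglobin UMIs were kept, which left 2667 of 7671 PBS and 4014 of 5709 CFA barcodes. The hemoglobin limit alone removed 3178 PBS and 339 CFA barcodes. The kept cells held 27201994 and 44432717 UMIs, with medians of 7022 and 6509.5 UMIs per cell. The libraries shared 10 barcode sequences, 2 of them among kept cells.

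VEGF ligands act on receptor tyrosine kinases of blood and lymphatic endothelium. Vegfa is the main driver of vessel sprouting through Kdr, the signalling receptor, while Flt1 binds Vegfa and Vegfb tightly and often holds them away from Kdr. Vegfc and Vegfd act mainly through Flt4 on lymphatic vessels. Angpt1, made by cells around vessels, activates Tek and keeps vessels stable and tight, Angpt2 can oppose it, and Tie1 is a partner receptor without a known ligand of its own class. In joints these genes are studied because new vessels enter inflamed synovium and osteochondral tissue.

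By the GENCODE annotation of GRCm38, all 10 are protein-coding genes. The receptors lie at chr4:94739289-94874976 on the plus strand (Tek), chr4:118471191-118490061 on the minus strand (Tie1), chr5:75932827-75978458 on the minus strand (Kdr) and chr5:147561604-147726011 on the minus strand (Flt1). The VEGF ligands lie at chr17:46016993-46032369 on the minus strand (Vegfa), chr19:6982473-6987651 on the minus strand (Vegfb), chr8:54077606-54187096 on the plus strand (Vegfc) and chrX:164373378-164402650 on the plus strand (Vegfd). The angiopoietins lie at chr15:42424723-42676977 (Angpt1) and chr8:18690263-18741562 (Angpt2), both on the minus strand.

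The promoters of Flt1, Kdr and Tek are shown because these 3 receptor genes share endothelial-like cells as their leading class, the one with the highest mean level over both libraries among classes with at least 50 cells in each. Tie1 shares it too, but its RefSeq start lies 212 bases inside the annotated gene, so its window, with 7 of the cores described next, is not printed. Each is the 250 bases before the RefSeq start on GRCm38.p6, on the strand of the gene, 5′ to 3′. Flt1 is chr5:147726012-147726261 on the minus strand, Kdr is chr5:75978456-75978705 on the minus strand, and Tek is chr4:94739039-94739288 on the plus strand. Capitals mark GGAA and its reverse complement TTCC, the core of sites for ETS factors, a family of transcription factors used by endothelial genes.
Flt1: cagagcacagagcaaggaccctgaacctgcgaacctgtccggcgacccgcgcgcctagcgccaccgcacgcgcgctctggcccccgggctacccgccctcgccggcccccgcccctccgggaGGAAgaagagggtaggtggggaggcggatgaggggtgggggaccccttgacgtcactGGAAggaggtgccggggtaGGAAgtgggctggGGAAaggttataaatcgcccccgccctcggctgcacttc
Kdr: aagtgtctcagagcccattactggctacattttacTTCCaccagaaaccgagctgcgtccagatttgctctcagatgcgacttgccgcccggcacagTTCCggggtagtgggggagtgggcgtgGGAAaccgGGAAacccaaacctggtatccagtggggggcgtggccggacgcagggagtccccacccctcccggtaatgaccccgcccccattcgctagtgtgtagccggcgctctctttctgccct
Tek: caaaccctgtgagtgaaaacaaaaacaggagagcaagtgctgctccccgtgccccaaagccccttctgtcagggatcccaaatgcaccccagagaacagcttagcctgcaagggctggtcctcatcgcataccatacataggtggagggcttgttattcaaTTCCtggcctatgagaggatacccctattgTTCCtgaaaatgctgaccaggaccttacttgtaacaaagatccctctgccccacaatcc
The core occurs 4 times in Flt1, 4 times in Kdr and 2 times in Tek. It is a common string, present in 93.4% of 32851 RefSeq promoter windows of this length with a median of 3 per window. The longer core CCGGAA or TTCCGG, which contains GGAA or TTCC, occurs in Kdr alone among the 8 matched genes, 1 time, and in 12.0% of all windows. The core of hypoxia response elements, ACGTG or CACGT, is in none of the 8 windows, Vegfa's among them, and in 16.6% of all windows. Angpt1 and Angpt2 had no matched window. A match in these letters is a description and not a binding site.

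Cells were clustered with the 10 genes left out, so that no class was defined by them, and a class is called after its markers with the ending -like. Endothelial-like cells numbered 756 in PBS and 1049 in CFA, fibroblast-like cells 469 and 365, Schwann-like cells 308 and 376, mural-like cells (pericytes and smooth muscle) 179 and 222, and tenocyte-like cells 151 and 110. Macrophage-like cells numbered 18 and 309, and osteoclast-like macrophage-like cells numbered 1 and 275. The latter were named from Acp5, Dcstamp, Mmp9, Atp6v0d2, Mmp12 and Spp1, with Mmp12 as the leading gene. Ctsk and Ocstamp, of the same marker list, were not among the markers that passed. Lymphatic-like cells numbered 18 and 12. The heat map of levels shows where each gene was found. A level is the number of UMIs of a gene per 1000000 UMIs of the class (UPM), and since 3′ UMIs are not scaled by length they are compared between cells and not between genes.

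**Figure D1:**
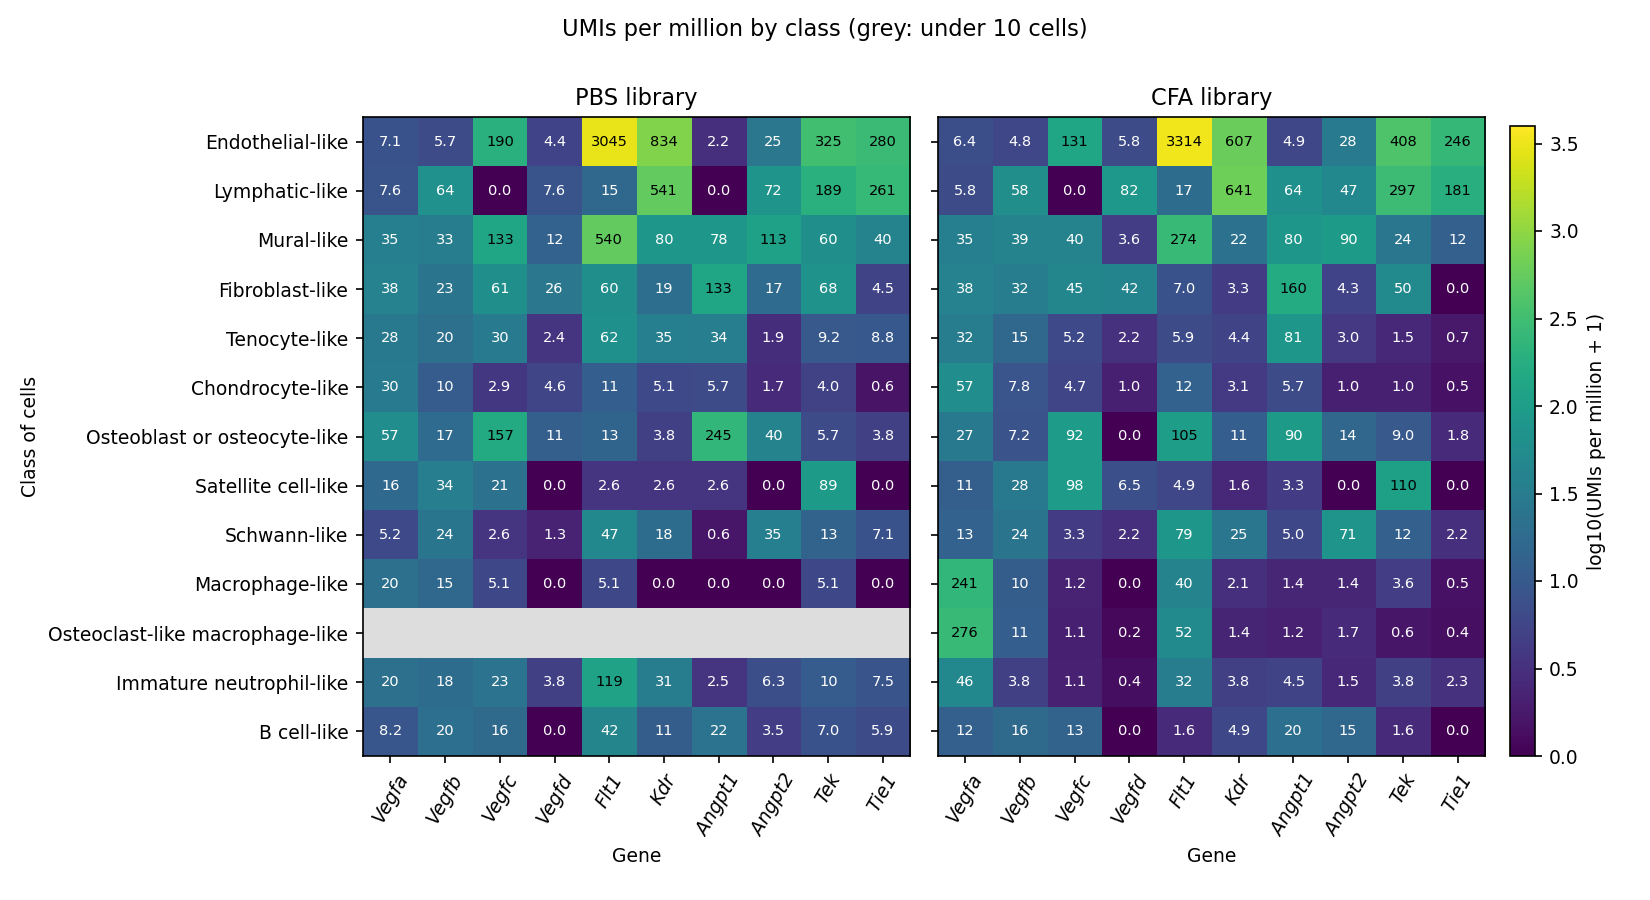
Level of the 10 genes by cell class in the PBS and the CFA library, coloured by log10(UPM + 1) with UPM printed in each field and classes of under 10 cells in grey. Flt1 is brightest in the endothelial-like row, at 3045 in PBS and 3314 in CFA, Kdr is bright there and in the lymphatic-like row, and Vegfa is brightest in the macrophage rows of CFA.

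Vegfa came from different cells in the 2 libraries. In PBS its UMIs came mostly from stromal cells, 33.1% of them from fibroblast-like and 11.2% from mural-like cells, while in CFA 78.7% (77.5 to 79.9) came from macrophage-like and osteoclast-like macrophage-like cells together. These held 3602 Vegfa UMIs in 584 cells, 14.5% of the CFA cells, against 4 UMIs in 19 cells in PBS, 0.658% of the PBS Vegfa UMIs. The bead depletion can set how many such cells each library holds, and its part in these shares was not tested. Over all kept cells Vegfa was at 22.4 UPM (20.6 to 24.2) in PBS and 103 UPM (100.03 to 106.02) in CFA, a ratio of 4.61 (4.23 to 5.02). Without both macrophage classes that ratio was 1.41.

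In CFA, osteoclast-like macrophage-like cells held 2588 Vegfa UMIs at 276 UPM (265 to 287), and macrophage-like cells 1014 UMIs at 241 UPM (227 to 257). These levels were 7.28 times (6.31 to 8.43) and 6.37 times (5.48 to 7.44) that of fibroblast-like cells of the same library. A Vegfa UMI was found in 93.5% and 65.7% of the cells, at medians of 31705 and 12136 UMIs, against 3.62% of endothelial-like cells at a median of 4398 UMIs. After each cell was thinned to 1000 UMIs the shares were 26.5%, 25.2% and 0.955%. The 18 PBS macrophage-like cells had 4 UMIs and 20.3 UPM (5.53 to 52.0), too few cells for a comparison by condition.

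Outside the macrophages Vegfa was nearly level in most stromal classes. Fibroblast-like cells had 201 UMIs and 37.99 UPM in PBS and 205 UMIs and 37.9 UPM in CFA, a ratio of 0.998 (0.817 to 1.22), and mural-like cells had 34.99 and 35.19 UPM. Chondrocyte-like cells, the cartilage cells, were the class with at least 50 cells in both libraries and the highest Vegfa over both. They had 53 UMIs and 30.2 UPM (22.6 to 39.5) in PBS and 110 UMIs and 57.2 UPM (47.0 to 68.9) in CFA, a ratio of 1.89 (1.35 to 2.68). The ratio was 6.58 (2.31 to 25.8) with cells assigned singly by markers, and 1.56 (0.875 to 2.90) with log-normalized clustering, an interval that includes 1. Of the 87 PBS chondrocyte-like cells, 29 came from a cluster that held no CFA cell, so the cells compared were not of the same makeup. Vegfa was 1 of 4 members with enough UMIs in this class (at least 20 over both libraries) and the only one past the fold of 1.5 used for a call, where 10.7% of all genes were higher. Immature neutrophil-like cells had 20.1 UPM in PBS and 46.2 UPM in CFA, and an unnamed cluster with Siglech, Flt3 and Meis1 had 30.4 and 135 UPM.

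**Figure D2:**
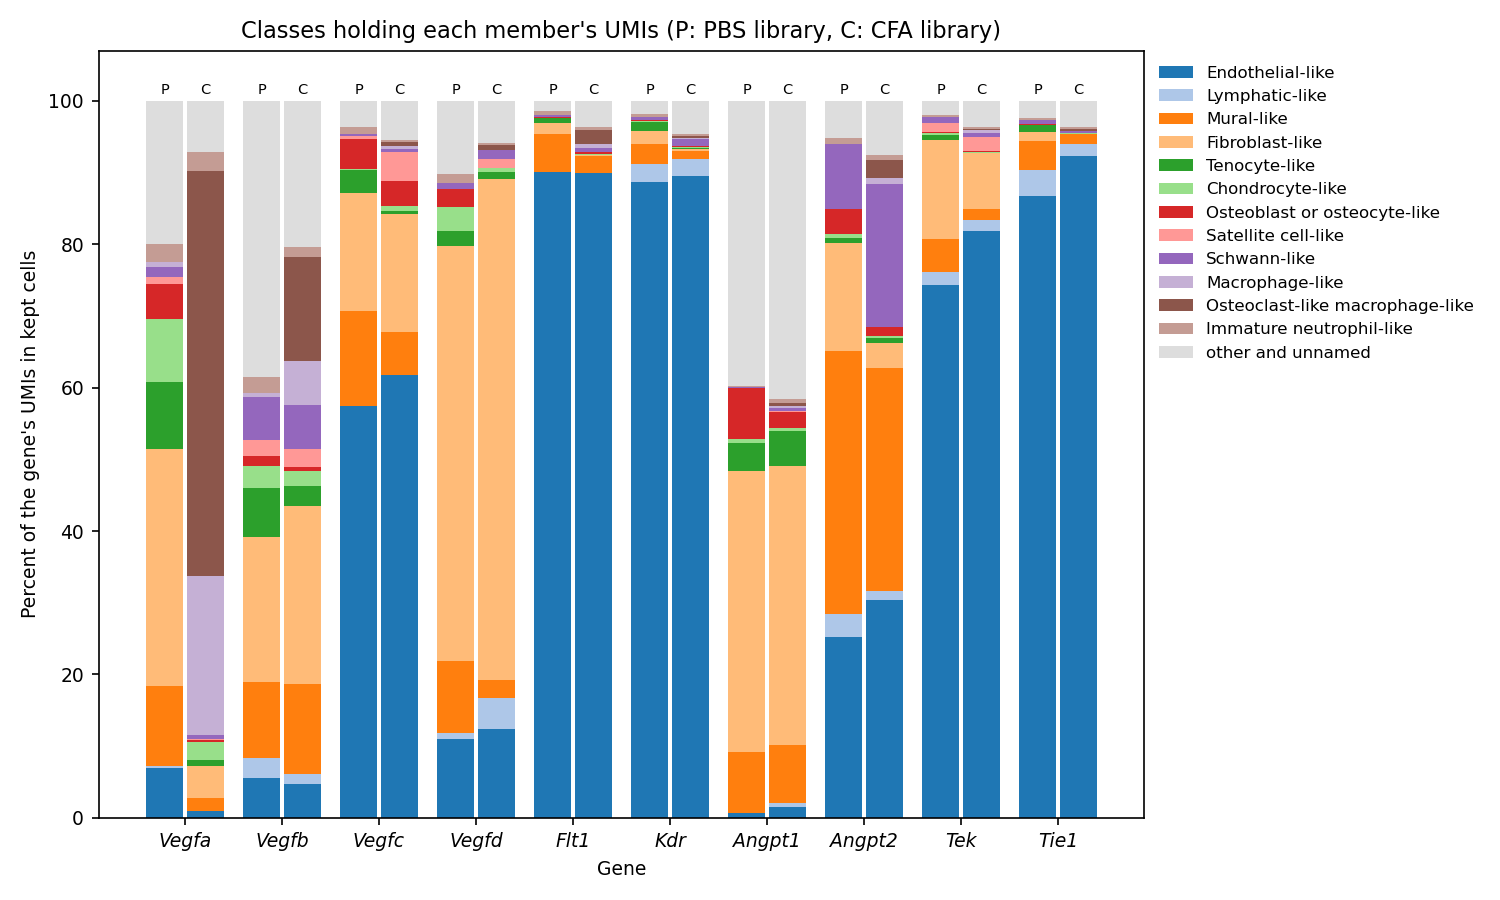
Percent of the UMIs of each gene held by each cell class, for PBS and CFA side by side, stacked to 100%. Vegfa passes from mostly fibroblast-like (33.1%) and other stromal classes in PBS to macrophage classes (78.7%) in CFA, while endothelial-like cells hold 90.1% and 89.9% of Flt1.

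Vegfb, which binds Flt1 and not Kdr, was low and spread over many classes in the plot of sources. Mural-like cells, its leading class, had 64 UMIs and 32.9 UPM (25.4 to 42.1) in PBS and 88 UMIs and 39.2 UPM (31.4 to 48.3) in CFA, a ratio of 1.19 (0.85 to 1.67). Fibroblast-like cells had 23.1 and 32.3 UPM, a ratio of 1.40 (1.11 to 1.78). Endothelial-like cells had 5.73 and 4.78 UPM. Vegfb did not pass the fold of 1.5 in these 3 classes. In immature neutrophil-like cells it had 14 UMIs and 17.6 UPM in PBS and 10 UMIs and 3.75 UPM in CFA, a ratio of 0.214 (0.0850 to 0.518).

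Vegfc came mostly from endothelial-like cells, and within the endothelium its level was highest in arterial cells. Endothelial-like cells held 57.5% of its UMIs in PBS and 61.7% in CFA. Arterial endothelial-like cells had 544 UMIs and 543 UPM (498 to 590.2) in PBS and 534 UMIs and 469 UPM (429.8 to 510.3) in CFA. In PBS this was 5.12 times (4.47 to 5.87) the level of capillary endothelial-like cells and 3.87 times (3.30 to 4.56) that of venular endothelial-like cells. In CFA it was 7.91 times (6.65 to 9.45) and 6.86 times (5.79 to 8.15). Lymphatic-like cells, the cell type on which Vegfc is known to act, had 0 Vegfc UMIs in both libraries, which allows up to 11.4 UPM in PBS and 17.5 UPM in CFA.

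Vegfc was lower in CFA in capillaries and venules. Capillary endothelial-like cells went from 351 UMIs and 106.06 UPM to 171 UMIs and 59.3 UPM, a ratio of 0.559 (0.463 to 0.673), and venular endothelial-like cells from 211 UMIs and 140.1 UPM to 184 UMIs and 68.4 UPM, a ratio of 0.488 (0.398 to 0.597). The arterial ratio was 0.864 (0.765 to 0.975). In satellite cell-like cells, the stem cells of muscle, Vegfc had 8 UMIs and 21.0 UPM (9.09 to 41.5) in PBS and 60 UMIs and 98.1 UPM (74.9 to 126) in CFA, a ratio of 4.66 (2.22 to 11.3). It was the only 1 of 3 members with enough UMIs there that was past the fold, where 17.4% of all genes were higher. None of these satellite cell-like UMIs lay in cells with endothelial markers.

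Vegfd came mostly from fibroblast-like cells. Fibroblast-like cells held 57.8% of its UMIs in PBS and 69.9% in CFA, with 137 UMIs and 25.9 UPM (21.7 to 30.6) in PBS and 225 UMIs and 41.6 UPM (36.3 to 47.4) in CFA, a ratio of 1.61 (1.29 to 2.001). With cells assigned singly by their detected markers, without clusters, the ratio was 1.39, under the fold of 1.5. The subcluster with Pi16, Dpp4, Cd55 and Sema3c, adventitial fibroblast-like, had the highest Vegfd of the subclusters in each library, 41.5 and 53.7 UPM, a ratio of 1.29 (0.977 to 1.73). This subcluster made up 129 of 469 fibroblast-like cells and 32.8% of their UMIs in PBS, and 160 of 365 cells and 58.5% in CFA. In the fibroblast-like cells outside it the Vegfd ratio was 1.34 (0.918 to 1.95), so Vegfd passed the fold in the class as a whole, whose mix differed, and in neither of its parts. The 18 and 12 lymphatic-like cells had 2 and 14 UMIs. In mural-like cells Vegfd went the other way, from 24 UMIs and 12.4 UPM to 8 UMIs and 3.56 UPM, a ratio of 0.289 (0.112 to 0.664). Of these, 19 and 7 UMIs were in the pericyte-like subcluster, at a ratio of 0.497 (0.177 to 1.24), and this subcluster had 80 of 179 mural-like cells in PBS and 66 of 222 in CFA.

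Flt1 was the receptor that marked nearly every endothelial-like cell. It had 18055 UMIs and 3045 UPM (3000.4 to 3089) in PBS and 22905 UMIs and 3314 UPM (3272 to 3357) in CFA, a ratio of 1.09 (1.07 to 1.11). It was found in 99.1% and 99.7% of endothelial-like cells, at medians of 5414 and 4398 UMIs, against 4.60% and 3.49% of chondrocyte-like cells at 15946 and 17705.5 UMIs. Endothelial-like cells held 90.1% of its UMIs in PBS and 89.9% in CFA. With log-normalized clustering and no integration of the libraries the ratio was 0.984, so its direction depended on the clustering.

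The near-equal total hid opposite differences between vessel types, as the plot of endothelial subtypes shows. In capillary endothelial-like cells Flt1 was at 3179 UPM (10520 UMIs in 516 cells) in PBS and 4788 UPM (13815 UMIs in 689 cells) in CFA, a ratio of 1.51 (1.47 to 1.55). Both capillary subclusters were higher in CFA, at 3591 against 5151 UPM and at 2616 against 4121 UPM. As a mean over cells the capillary ratio was 1.44, under the fold of 1.5. In arterial endothelial-like cells Flt1 was lower in CFA, 3848 against 2948 UPM with a ratio of 0.766 (0.731 to 0.802), and in venular endothelial-like cells 2155 against 1785 UPM with a ratio of 0.828 (0.792 to 0.866). The lymphatic-like cells had 4 and 3 Flt1 UMIs, at 15.1 and 17.5 UPM.

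**Figure D3:**
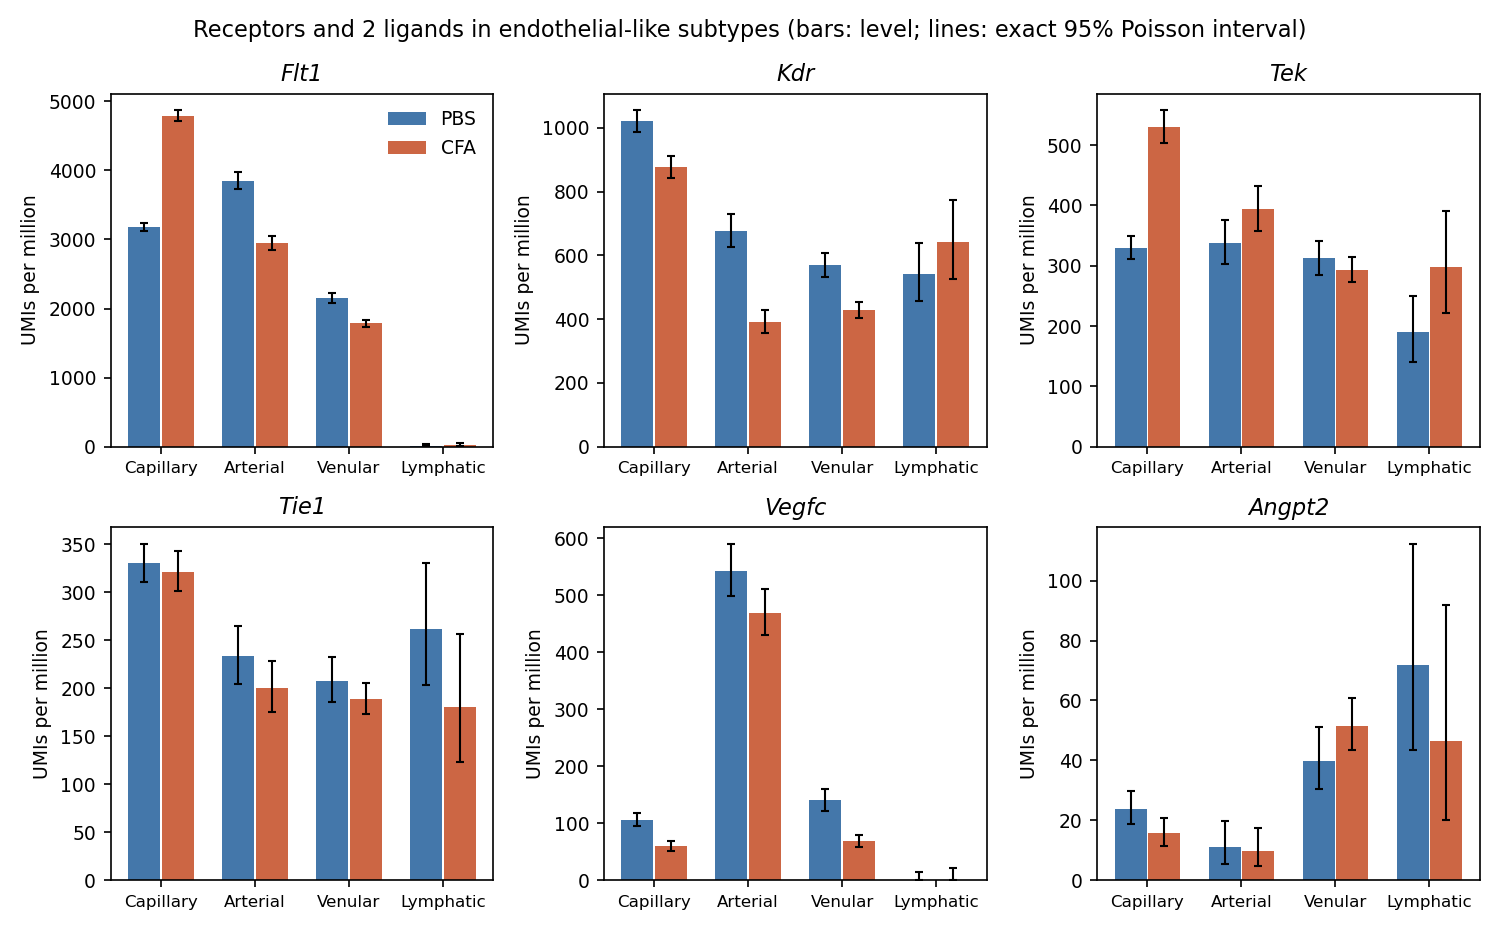
Level of Flt1, Kdr, Tek, Tie1, Vegfc and Angpt2 in UPM in capillary, arterial, venular and lymphatic endothelial-like cells of PBS and CFA, each gene on its own axis from 0, with 95% counting intervals as bars. Flt1 in capillary cells stands at 3179 in PBS and 4788 in CFA while the arterial and venular bars are lower in CFA, and Vegfc is highest in arterial cells of both libraries.

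Kdr, the receptor that carries most of the VEGF signal, was lower in CFA in each blood vessel type. Endothelial-like cells had 4948 UMIs and 834 UPM (811 to 858) in PBS and 4195 UMIs and 607 UPM (589 to 626) in CFA, a ratio of 0.727 (0.698 to 0.758). The share of endothelial-like cells with a Kdr UMI was 91.7% in PBS and 85.3% in CFA, and 53.6% and 46.1% after thinning to 1000 UMIs. Arterial endothelial-like cells went from 675 UPM (677 UMIs) to 392 UPM (446 UMIs), a ratio of 0.580 (0.513 to 0.654), which was 0.670 as a mean over cells and so just short of a 1.5-fold difference. Capillary endothelial-like cells had 1019.8 and 878 UPM and venular endothelial-like cells 568 and 428 UPM, ratios of 0.861 and 0.754. Capillaries had 1.51 times (1.39 to 1.64) the arterial level in PBS and 2.24 times (2.03 to 2.48) in CFA.

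Lymphatic-like cells carried Kdr with very little Flt1. They had 143 Kdr UMIs and 541 UPM (456 to 638) in PBS and 110 UMIs and 641 UPM (527 to 772) in CFA. Flt1 made up 2.72% and 2.65% of their Flt1 plus Kdr UMIs, against 78.5% (78.0 to 79.0) and 84.5% (84.1 to 84.9) in endothelial-like cells. Both receptors were found in 691 of 756 PBS endothelial-like cells (91.4%) and in 894 of 1049 CFA endothelial-like cells (85.2%).

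In the stromal classes of PBS, the Flt1 and Kdr UMIs sat mostly in cells that also carried endothelial genes. In PBS fibroblast-like cells, 20 of 469 cells had at least 3 of 8 endothelial markers, and they held 297 of 318 Flt1 UMIs (93.4%), 85 of 100 Kdr UMIs and 21 of 24 Tie1 UMIs. In CFA, 4 of 365 fibroblast-like cells had such markers and held 0 of 38 Flt1 UMIs. Without these cells Flt1 in fibroblast-like cells was at 4.21 UPM in PBS and 7.23 UPM in CFA, and Kdr at 3.01 and 3.04 UPM. The summed level of the 8 endothelial markers in fibroblast-like cells was 485 UPM in PBS and 308 UPM in CFA. In tenocyte-like cells, 127 of 128 PBS Flt1 UMIs lay in 6 of 151 cells.

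Of the mural-like cells of PBS and CFA, 45 of 179 and 36 of 222 had at least 3 endothelial markers. These held 989 of 1050 and 545 of 614 Flt1 UMIs, and 155 of 156 and 47 of 49 Kdr UMIs. Without them Kdr was at 0.854 and 1.22 UPM, and Flt1 at 52.1 and 41.9 UPM. Osteoclast-like macrophage-like cells of CFA had 487 Flt1 UMIs at 51.9 UPM (47.4 to 56.7), of which 23 (4.72%) lay in cells with endothelial markers, and 13 Kdr UMIs. Flt1 thus made up 97.4% (95.6 to 98.6) of Flt1 plus Kdr UMIs in them and 94.9% (90.5 to 97.6) in CFA macrophage-like cells. In the latter 76 of 167 Flt1 UMIs (45.5%) lay in 8 cells with endothelial markers, and the level was 39.7 UPM with them and 22.9 UPM (18.5 to 28.1) without them. Flt1 is known in cells of the macrophage lineage, where it serves migration towards Vegfa.

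Angpt1 had its largest share of UMIs in fibroblast-like cells, which held 39.2% of them in PBS and 38.9% in CFA, with 703 UMIs and 133 UPM (123 to 143) in PBS and 868 UMIs and 160.4 UPM (149.9 to 171) in CFA, a ratio of 1.21 (1.09 to 1.34). Within the adventitial fibroblast-like subcluster the Angpt1 ratio was 1.08 (0.924 to 1.26). In the mural-like class the subcluster with the pericyte markers Kcnj8, Abcc9, Vtn and Higd1b had 167 and 156 UPM, from 130 of 152 mural-like UMIs in PBS and 90 of 180 in CFA. The genes that led this subcluster included Actg2, a smooth muscle marker, so the name pericyte-like rests on the named markers alone. The largest mural-like subcluster, which stayed unnamed, had 15 UMIs and 20.6 UPM in 74 PBS cells and 90 UMIs and 61.9 UPM in 142 CFA cells, a ratio of 3.01 (1.73 to 5.60). Tenocyte-like cells had 69 UMIs and 33.6 UPM (26.1 to 42.5) in PBS and 109 UMIs and 80.7 UPM (66.3 to 97.4) in CFA, a ratio of 2.40 (1.76 to 3.30). Endothelial-like cells, which receive Angpt1, had 13 UMIs at 2.19 UPM and 34 UMIs at 4.92 UPM. Of the 34 CFA UMIs, 20 were in arterial endothelial-like cells, which had 2 in PBS.

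Several clusters that stayed unnamed also held Angpt1. An unnamed cluster with Siglech, Stat4, Flt3 and Meis1 held 25.2% of the Angpt1 UMIs in PBS and 22.2% in CFA, from 44 and 88 cells, at 916 and 589.6 UPM. An unnamed cluster of 7 and 11 cells with Prss34, Mcpt8 and Cpa3 had 10 and 161 UMIs. Osteoblast or osteocyte-like cells, 35 and 28 cells, had 245 and 90.4 UPM.

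Angpt2 had its highest level in mural-like cells, and a pericyte-like subcluster carried most of it, 181 of 219 UMIs in PBS and 133 of 201 in CFA. Mural-like cells had 219 UMIs and 113 UPM (98.3 to 129) in PBS and 201 UMIs and 89.5 UPM (77.6 to 103) in CFA, a ratio of 0.794 (0.653 to 0.967). This ratio was 1.12 with a mitochondrial limit of 5% and 0.967 after the 5% highest doublet scores were removed, so no direction can be given for it. The pericyte-like subcluster had 233 UPM in PBS and 231 UPM in CFA, a ratio of 0.992 (0.787 to 1.25). The share of Angpt2 among Angpt1 plus Angpt2 UMIs of mural-like cells was 59.0% (53.8 to 64.1) in PBS and 52.8% (47.6 to 57.9) in CFA, and in the pericyte-like subcluster 58.2% and 59.6%. In the largest mural-like subcluster, which stayed unnamed, it was 59.5% (42.1 to 75.2) and 40.8% (32.9 to 49.0).

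Angpt2 was also found in Schwann-, endothelial- and fibroblast-like cells, and in osteoblast or osteocyte-like cells with 21 UMIs at 40.1 UPM in PBS and 8 UMIs at 14.5 UPM in CFA. Schwann-like cells, the glia of nerves, had 54 UMIs and 35.1 UPM (26.4 to 45.8) in PBS and 129 UMIs and 71.0 UPM (59.3 to 84.4) in CFA, a ratio of 2.02 (1.46 to 2.83). Of the 129 CFA UMIs, 69 came from 16 cells of a subcluster with Matn2 and Fabp7, which had 3 cells in PBS, and with a mitochondrial limit of 5% the ratio was 1.30. Venular endothelial-like cells had 39.8 UPM (60 UMIs) and 51.6 UPM (139 UMIs) and capillary endothelial-like cells 23.9 UPM (79 UMIs) and 15.6 UPM (45 UMIs). The venular level was 1.67 times (1.17 to 2.36) the capillary level in PBS and 3.31 times (2.35 to 4.74) in CFA. Fibroblast-like cells went from 90 UMIs and 17.0 UPM to 23 UMIs and 4.25 UPM, a ratio of 0.250 (0.151 to 0.399), and the ratio was 0.26 without cells with endothelial markers. Most of these UMIs, 77 in PBS and 14 in CFA, were in 1 fibroblast-like subcluster.

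Tek, the angiopoietin receptor, was higher in CFA in capillaries. Endothelial-like cells had 1927 UMIs and 325 UPM (311 to 339.8) in PBS and 2819 UMIs and 408 UPM (393 to 423) in CFA, a ratio of 1.26 (1.18 to 1.33). Capillary endothelial-like cells went from 329.6 UPM (1091 UMIs) to 530.3 UPM (1530 UMIs), a ratio of 1.61 (1.49 to 1.74), and the share of cells with a UMI after thinning to 1000 UMIs went from 29.6% to 40.2%. Arterial endothelial-like cells had 338 and 393 UPM and venular endothelial-like cells 312 and 293 UPM.

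Tie1, the partner of Tek, was nearly level in capillaries. Endothelial-like cells had 1659 UMIs and 279.8 UPM (266 to 294) in PBS and 1698 UMIs and 246 UPM (234 to 258) in CFA, a ratio of 0.878 (0.820 to 0.940), and capillary endothelial-like cells had 330.3 UPM (1093 UMIs) and 321 UPM (927 UMIs). Endothelial-like cells held 86.8% and 92.3% of Tie1 UMIs and 74.3% and 81.9% of Tek UMIs. Tek and Tie1 had UMIs in the same cell in 63.0% (PBS) and 56.8% (CFA) of the endothelial-like class as counted, and in 6.98% and 8.31% after each cell was thinned to 1000 UMIs, so no order of the libraries is read from it.

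Tek also had UMIs in stromal cells without endothelial markers. In fibroblast-like cells it had 359 UMIs and 67.8 UPM in PBS and 268 UMIs and 49.5 UPM in CFA, and only 56 of the 359 PBS UMIs (15.6%) lay in cells with at least 3 endothelial markers. The adventitial fibroblast-like subcluster had 148 UPM in PBS and 73.0 UPM in CFA. Satellite cell-like cells had 34 UMIs and 89.5 UPM (62.0 to 125) in PBS and 67 UMIs and 109.6 UPM (84.9 to 139) in CFA, of which 5 and 0 lay in cells with endothelial markers, and 0 Tie1 UMIs in both libraries. In chondrocyte-like cells Tek had 7 and 2 UMIs.

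Counted over the leading class of each gene, 2 of 10 members were higher in CFA by at least 1.5-fold (Vegfa in chondrocyte-like and Vegfd in fibroblast-like cells, the latter not within the adventitial subcluster or outside it), 0 were lower and 8 were neither. In these leading classes 10.5% to 13.6% of all genes were higher and 12.2% to 17.5% lower. In the fibroblast-like class as a whole 1 member was higher (Vegfd), against 13.6% of all genes, and 4 were lower (Flt1, Kdr, Tie1 and Angpt2), against 13% of all genes. Of the 4 lower ones, Flt1, Kdr and Tie1 were in PBS held mainly by the few cells with endothelial markers. In the endothelial-like class 1 of 10 members, Angpt1, was higher, against 11.2% of all genes, and 0 were lower, against 14.1%.

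**Figure D4:**
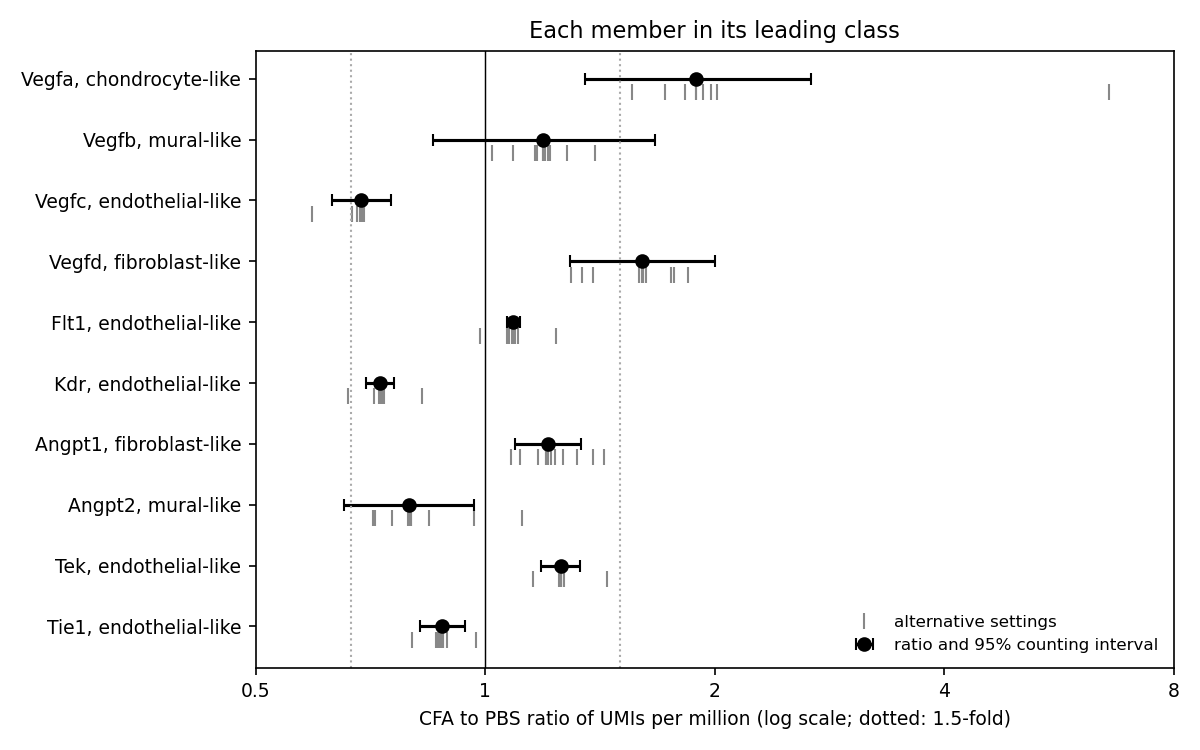
CFA to PBS ratio of UPM of each gene in its leading class, on a log axis, with 95% counting intervals as bars and the values under the alternative settings as ticks. Vegfa (1.89) and Vegfd (1.61) lie above the 1.5-fold line, and the ticks of Angpt2 lie on both sides of 1.

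In capillary endothelial-like cells, 2 of 7 members with enough UMIs were higher (Flt1 and Tek), against 13.7% of all genes, and 2 were lower (Vegfc and Angpt2), against 19.4%. In arterial endothelial-like cells 2 of 8 were past the fold upwards, against 15% of all genes, and 1 was lower (Kdr), against 16%. These 2 were Angpt1, with 2 and 20 UMIs and a ratio of 8.80 (2.14 to 77.7), and Vegfa, with 10 and 22 UMIs and a ratio of 1.94 (0.880 to 4.58), an interval that includes 1. In venular endothelial-like cells 2 of 8 were lower (Vegfc and Vegfd), against 15.6%. Over all kept cells, where the mix of classes also counts, 1 member was higher (Vegfa), against 14.1% of all genes, and 4 were lower (Vegfc, Kdr, Angpt2 and Tie1), against 23.5%.

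In mural-like cells 0 members were higher, against 10.5% of all genes, and 6 were lower (Vegfc, Vegfd, Flt1, Kdr, Tek and Tie1), against 12.2%. The 8 endothelial markers summed to 1350 UPM in PBS and 540 UPM in CFA mural-like cells, and 245 of the 259 PBS Vegfc UMIs lay in cells with at least 3 of them. Without the mural-like subcluster led by endothelial genes, 3 of 10 were lower (Vegfd, Kdr and Tie1), against 11.1%, and cells with endothelial markers still held 46 of 47 PBS Kdr UMIs and 21 of 22 PBS Tie1 UMIs. In tenocyte-like cells 1 of 7 was higher (Angpt1), against 12.1%, and 4 were lower (Vegfc, Flt1, Kdr and Tek), against 13.7%, while the endothelial markers summed to 294 and 121 UPM. Without the tenocyte-like cells that had at least 3 of these markers, Vegfc had 44 UMIs and 23.6 UPM in PBS and 7 UMIs and 5.24 UPM in CFA, a ratio of 0.222 (0.0844 to 0.497). In Schwann-like cells 3 of 6 were higher (Vegfa, Flt1 and Angpt2), against 16.2%, and the endothelial markers summed to 177 and 173 UPM. Of the Schwann-like Flt1 UMIs, 67 of 73 in PBS and 117 of 144 in CFA lay in cells with at least 3 of these markers. The Schwann-like subcluster with Matn2 and Fabp7 had 3 cells in PBS and 16 in CFA, so the makeup of this class differed for all 3 genes. In immature neutrophil-like cells 1 of 5 members was higher (Vegfa), against 13.9%, and 4 were lower (Vegfb, Vegfc, Flt1 and Kdr), against 26.1%. The endothelial markers there summed to 341 and 57.8 UPM, and cells with at least 3 of them held 89 of 95 PBS Flt1 UMIs and 21 of 25 PBS Kdr UMIs.

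The genes with the most similar pattern were taken over 22 points, each 1 class in 1 library, from 13 classes with at least 50 cells, as Pearson's r of log2(UPM + 10), a description whose points share libraries and depth. For Kdr they were Myct1 (r = 0.985), Gpihbp1 (0.984) and Emcn (0.982), and for Tie1 Myct1 (0.992), Ushbp1 (0.990) and Ccm2l (0.987). For Flt1 they were Ptprb (0.965), Podxl (0.959) and Adgrf5 (0.959), and for Tek Cyb561 (0.971), Cavin2 (0.933) and Fzd4 (0.930). Vegfc stood nearest to Fzd4 (0.931), Pdlim1 (0.907) and Ebf3 (0.904). Angpt1 stood nearest to Cygb (0.929), Osr1 (0.920) and C1s1 (0.908), Vegfd to Cd248 (0.921), Bmpr1b (0.905) and Adgrd1 (0.904), and Angpt2 to Filip1 (0.931), Ednrb (0.925) and Gm10687 (0.923). Vegfa had Cmklr1 (0.887), Cacna1d (0.875) and Guca1a (0.855), and Vegfb had Spry2 (0.836), Irs2 (0.835) and mt-Cytb (0.827). Among pairs of members r was highest for Kdr and Tie1, 0.978.

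The wider pathway was read from fixed lists. Of 10 sprouting or tip cell genes, 0 were higher and 4 were lower in CFA endothelial-like cells, with a median ratio of 0.822, where 11.2% of all genes were higher and 14.1% lower. The lower ones were Esm1 (25.6 to 8.10 UPM), Apln (21.2 to 10.1 UPM), Unc5b (75.7 to 43.4 UPM) and Nid2 (61.9 to 36.2 UPM), all known from the leading cells of vessel sprouts. In capillary, arterial and venular endothelial-like cells the ratios were 0.349, 0.966 and 0.883 for Nid2 and 0.617, 0.488 and 0.893 for Unc5b. Plaur, of the same list, had a ratio of 1.49 in the whole class, 1.51 (1.19 to 1.93) in capillary and 4.69 (2.28 to 10.9) in arterial endothelial-like cells. Among co-receptors, other ligands and partners, 1 of 7 tested was higher there, Pgf, a ligand of Flt1, from 3.88 to 7.96 UPM, and 0 were lower, with a median of 0.942. Nrp1, a co-receptor of Kdr, was at 1123 and 916 UPM. Ptprb, the phosphatase that acts on Tek, was at 1312 and 1569.5 UPM, a ratio of 1.20. Of 4 tested signalling genes after the receptors, 0 passed the fold in either direction, with a median of 1.12.

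Hypoxia genes, among which Hif1a encodes a factor known to act on Vegfa, were read the same way. In endothelial-like cells 1 of 13 was higher, Hif1a from 96.5 to 181 UPM, and 1 was lower, Adm from 16.5 to 5.50 UPM, against 11.2% and 14.1% of all genes. The Hif1a ratio was 1.23 (1.03 to 1.48) in capillary, 1.91 in arterial and 1.79 in venular endothelial-like cells. Venular cells had the highest Hif1a and made up more of the class UMIs in CFA than in PBS. In fibroblast-like cells 6 of 13 were higher (Hif1a, Epas1, Slc2a1, Bnip3, Ankrd37 and Ndrg1) and 0 lower, with a median ratio of 1.24, where 13.6% of all genes were higher and 13% lower, while Vegfa in the same cells had a ratio of 0.998. Hif1a in fibroblast-like cells went from 102 to 249 UPM. The mix of this class differed, with 129 of 469 cells in the adventitial fibroblast-like subcluster in PBS and 160 of 365 in CFA. Its part in the hypoxia ratios was not tested. In mural-like cells 0 of 13 passed the fold, where 10.5% of all genes were higher and 12.2% lower. In chondrocyte-like cells 1 was past the fold upwards, against 10.7%, Ankrd37 with a ratio of 1.60 (0.960 to 2.73). Past it downwards were 3, against 17.5%: Ldha, 0.647 (0.599 to 0.699), Car9, 0.342 (0.109 to 0.919), and Egln3, 0.497 (0.224 to 1.05). The intervals of Ankrd37 and Egln3 include 1. In the CFA osteoclast-like macrophage-like and macrophage-like cells, the main Vegfa sources, Hif1a was at 656 and 538 UPM and the glucose transporter Slc2a1 at 268 and 168 UPM. These classes had 1 and 18 cells in PBS, so no ratio is given, and a link of these genes to Vegfa was not tested.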

How the data were processed

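Whole joints of PBS- and CFA-injected mice were measured by droplet scRNA-Seq, 1 library each, with the 3′ kit given as version 2 in the labels and 3.1 in the methods. The authors deposited raw UMI counts per gene and barcode from Cell Ranger 7.0.1 with the mm10 genome, without normalization. Whether intronic reads were counted is not given in the sources used here, and 3′ UMIs cannot tell the soluble from the membrane form of Flt1 or the splice forms of Vegfa apart.

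Groups came from the labels. Seurat 5.3.0 (sctransform 0.4.2, R 4.3.3) normalized with SCTransform, integrated on 3000 genes and clustered on 200 principal components at a resolution of 1.5, with the 10 members left out. The methods give the same normalization, number of components and resolution, and no number of integration genes. A cluster was named from at least 3 markers that were found in at least 25% of its cells and at least 2-fold above other cells. Endothelial-, fibroblast-, mural- and Schwann-like cells were reclustered on 30 components at a resolution of 0.3. Python 3.11.15 (numpy 2.4.6, scipy 1.17.1, pandas 2.3.3, matplotlib 3.10.9) summed UMIs by class and library.

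Levels carry exact Poisson intervals, shares exact Clopper-Pearson intervals, and ratios exact conditional binomial intervals, all at 95%, and a count of 0 was taken to allow 3 counts. A ratio was called past 1.5-fold in either direction for genes with at least 20 UMIs over both libraries. The ratio step was tested on simulated data. Scrublet (scanpy 1.11.5) marked 21 PBS and 2 CFA cells as doublets, too few to have worked, so no cell was removed for it. Shares were also read after thinning to 1000 UMIs, for which 55 PBS and 129 CFA cells were too shallow.

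The members, gene lists and markers were chosen with earlier results of these data known. All 10 members are named, with the 3 genes most similar to each among genes with at least 200 UMIs and list genes past the fold in the classes whose list counts are given. Alternatives were other clusterings, other limits on cells, removal of the 5% highest doublet scores, scaling by the median ratio and means over cells.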

Additional observations from a re-analysis of the deposited data

Results flagged for a closer look

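For 5 members the CFA to PBS ratio within 1 class lay above 1.5 and within another class below 0.667, both with intervals that left out 1. The share of all genes that meet this rule was not computed, so the count does not set these members apart from other genes. With 1 library per condition the difference between the classes was not tested in any of them. Vegfd had a ratio of 1.61 in fibroblast-like and 0.289 in mural-like cells. The fibroblast-like ratio was 1.29 within the adventitial subcluster, which held 129 of 469 PBS and 160 of 365 CFA cells of the class, and 1.34 outside it, both with intervals that include 1. Angpt2 had 2.02 in Schwann-like and 0.250 in fibroblast-like cells. Most of its Schwann-like CFA UMIs came from 16 cells of a subcluster that had 3 cells in PBS. With a mitochondrial limit of 5% the Schwann-like ratio fell below 1.5. Vegfc had 4.66 in satellite cell-like cells and 0.0499 in immature neutrophil-like cells, the latter from 18 PBS and 3 CFA UMIs. Of these 18, 13 lay in cells with at least 3 of 8 endothelial markers, whose summed level in the class was 341 UPM in PBS and 57.8 UPM in CFA, and without such cells the ratio was 0.0958 (0.00912 to 0.585). Flt1 had 1.67 in Schwann-like cells and 0.0390 in B cell-like cells, the latter from 36 PBS UMIs and 1 CFA UMI. In Schwann-like cells 67 of 73 PBS and 117 of 144 CFA UMIs lay in cells with endothelial markers, and without them the ratio was 3.94 (1.59 to 11.7). In B cell-like cells 31 of the 36 lay in cells with endothelial markers, and without them the ratio was 0.269 (0.00569 to 2.41), an interval that includes 1. Tek had 1.61 in capillary endothelial-like cells and 0.160 in tenocyte-like cells, the latter from 19 PBS and 2 CFA UMIs. In tenocyte-like cells 17 of the 19 lay in cells with endothelial markers, and without them 2 and 1 UMIs were left, a ratio of 0.698 (0.0118 to 13.4).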

How the results depend on the processing

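Of the printed results 26 were recomputed under alternatives, the endothelial subtype ratios without another clustering, and the other class and subcluster ratios were not. Of 195 values, 170 stayed within their limits, 25 moved and 0 reversed a called direction. The cause of a move was not tested. With cells assigned singly by markers, the Vegfa ratio of chondrocyte-like cells was 6.58 (2.31 to 25.8) and the Vegfc ratio of endothelial-like cells 0.593, past 1.5-fold. With log-normalized counts and no integration the endothelial-like ratios were 0.984 for Flt1, 0.660 for Kdr (past 1.5-fold), 1.15 for Tek and 0.801 for Tie1, and the fibroblast-like ratio of Angpt1 was 1.43. As a mean over cells these were 1.24, 0.825, 1.44, 0.973 and 1.38. Without the highest doublet scores Flt1 was at 1.07 and Angpt2 in mural-like cells at 0.967. With a mitochondrial limit of 5% the mural-like Angpt2 ratio was 1.12 and its share in CFA 58.4%. Added after seeing the data were the Vegfa ratio without macrophage classes (1.41), the mural-like class without its endothelial-gene subcluster, the fibroblast-like class by its adventitial subcluster (Angpt1 ratio 1.08 within it), the leading-class ratios without shared barcodes, the endothelial-like ones with the unnamed cluster of few UMIs, and the alternative settings for the subtype ratios and for the tenocyte-, Schwann- and satellite cell-like ratios. The Angpt1 ratio of tenocyte-like cells was 1.75 with no hemoglobin limit. A resolution of 0.8 gave no chondrocyte-like class for Vegfa and no tenocyte-like class for Angpt1, so it has no value there. No paired analysis was possible because each group has 1 library. Depth limits the ligands of low level: Vegfb and Vegfd levels rest on at most 225 UMIs per class and library, and classes of under 20 cells, lymphatic-like ones included, give wide intervals.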
